A study of Mus musculus with 6 samples.

Results

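Apolipoproteins are the protein parts of lipoprotein particles, and the genes described here are 8 of them together with Lpl, the gene of lipoprotein lipase. The 9 genes were taken by symbol from a table of 22027 genes. They are Apoe, Apoc1, Apoc2, Apoc3, Apoa1, Apoa2, Apob, Apoh and Lpl, and each was found under 1 identifier. The libraries came from cells labelled as liver lymphatic endothelial cells, which were sorted from IL7-GFP mice, in which green fluorescent protein reports the gene of interleukin 7. There were 3 libraries from mice at day 3 after hepatic ischemia and reperfusion (I/R), in which blood flow to the liver is stopped and restored, and 3 libraries from sham-operated mice. Both groups carried the reporter and both were collected as reporter-positive cells, per the column names. The sources used here give no strain, age or sham time point and do not tie libraries to separate animals, so a p-value covers the spread between libraries, which may be technical. The sorting gate beyond the reporter is not stated either.

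Lipoproteins carry triglyceride and cholesterol through blood and lymph. Apob forms the backbone of very low density lipoprotein, Apoa1 and Apoa2 are the main proteins of high density lipoprotein, Apoe is the ligand by which remnants are taken up by receptors, and the small Apoc proteins regulate lipolysis and uptake. In the liver, hepatocytes make nearly all of these transcripts. Macrophages also make Apoe, Apoc1 and Apoc2, whose genes lie in 1 cluster with shared enhancers that answer to liver X receptors, and macrophages make Lpl, which adult hepatocytes hardly express. The genes were therefore read in 3 sets, which are Apoe, Apoc1 and Apoc2 as transcripts of both cell types, Apoc3, Apoa1, Apoa2, Apob and Apoh as transcripts of hepatocytes, and Lpl.

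The sorted libraries held marker transcripts of several cell types. Depth was 6297308 to 17086746 recovered counts per library. All 8 lymphatic markers were above 0 in every library, with a summed level of 27723 to 44734 normalised counts in I/R libraries and 8605 to 30646 in sham libraries. The 14 Kupffer cell and macrophage markers summed to 172180 to 287372 in I/R libraries and to 247606 to 285105 in sham libraries. The 18 hepatocyte markers, none an apolipoprotein, summed to 77678 to 90538 in I/R libraries and to 61899 to 103539 in sham libraries. In bulk libraries such as these, fewer cells of a type and less RNA per cell cannot be told apart.

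The promoters of Apoe, the most abundant transcript, and of Apoa1, Apoa2 and Apoh, which were low together in a sham library described further on, are shown upstream of the RefSeq start site, leaving out any base that the annotation places in an exon of the gene. The set of RefSeq promoters used here, on GRCm38.p6, held an entry for 6 of the 9 genes. Those of Apoc2 and Apob, which were also lowest in that sham library, are not shown. The Apoe stretch is chr7:19699189-19699438 on the minus strand. On the plus strand, that of Apoa1 is chr9:46228380-46228579, that of Apoa2 chr1:171224804-171225053 and that of Apoh chr11:108395047-108395292. Capitals mark the TATA box letters TATAAA and the nuclear receptor half-sites AGGTCA and GGGTCA, searched on both strands.
Apoe: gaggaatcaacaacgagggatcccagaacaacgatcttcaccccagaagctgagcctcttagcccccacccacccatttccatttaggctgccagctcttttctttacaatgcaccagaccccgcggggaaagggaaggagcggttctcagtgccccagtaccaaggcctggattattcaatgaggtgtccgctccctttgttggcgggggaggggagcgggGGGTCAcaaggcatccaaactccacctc
Apoa1: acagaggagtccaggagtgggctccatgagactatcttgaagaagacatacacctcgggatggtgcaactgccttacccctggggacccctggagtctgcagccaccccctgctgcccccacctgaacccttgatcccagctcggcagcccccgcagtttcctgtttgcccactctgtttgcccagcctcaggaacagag
Apoa2: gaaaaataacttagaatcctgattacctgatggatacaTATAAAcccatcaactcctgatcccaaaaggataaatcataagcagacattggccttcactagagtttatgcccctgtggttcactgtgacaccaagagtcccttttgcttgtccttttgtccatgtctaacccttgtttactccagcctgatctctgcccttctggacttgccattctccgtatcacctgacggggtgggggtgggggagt
Apoh: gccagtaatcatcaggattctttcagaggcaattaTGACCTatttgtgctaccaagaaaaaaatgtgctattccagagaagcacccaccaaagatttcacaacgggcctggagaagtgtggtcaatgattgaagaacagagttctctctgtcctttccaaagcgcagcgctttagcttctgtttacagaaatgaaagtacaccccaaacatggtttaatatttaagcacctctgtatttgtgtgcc

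The Apoe stretch held GGGTCA from base -28 to -23 before the start, Apoa2 held TATAAA from -212 to -207, and Apoh held AGGTCA on the other strand from -215 to -210. Of the stretches not shown, Apoc2 held AGGTCA from -115 to -110 and Apob held TATAAA from -60 to -55. The Apoa1 stretch held none of the 3 marked sequences. It is 200 bases long and ends at 46228579, before a RefSeq start at 46228630, so the bases nearest that start were not searched. Exon bases were kept in the RefSeq windows counted next. Among 32851 RefSeq windows of 250 bases before a start, 12.4% held TATAAA, 14.0% AGGTCA and 11.6% GGGTCA, so these letters are common and a match is a description.

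In GRCm38 the Apoe gene (ENSMUSG00000002985) runs from 19696109 to 19699188 on the minus strand of chromosome 7. Apoc1 (ENSMUSG00000040564, 19689481 to 19692660) begins 3448 bp away on the same strand, and Apoc2 (ENSMUSG00000002992, 19671579 to 19677941) lies beyond Apoc4 in the same cluster. Apoa1 (ENSMUSG00000032083, 46228580 to 46230466, plus strand) and Apoc3 (ENSMUSG00000032081, 46232933 to 46235636, minus strand) are neighbours on chromosome 9, 2466 bp apart. The others stand alone, with Apoa2 (ENSMUSG00000005681) on chromosome 1, Lpl (ENSMUSG00000015568) on chromosome 8, Apoh (ENSMUSG00000000049) on chromosome 11 and Apob (ENSMUSG00000020609) on chromosome 12. Apoc2 overlaps Gm44805 on the same strand, and reads of the pair could be split; Gm44805 stood at 77.9 normalised counts in I/R library 2 and at 16.7 in sham library 3 and was listed at 0 in the other libraries. Apoh overlaps Prkca on the opposite strand, and strandedness of the libraries is not given.

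Apoe had the highest mean of all 22027 genes and the highest single value in 5 of 6 libraries, sham library 3 being the exception. It took 1.12 ± 0.124% of recovered counts in I/R libraries and 0.910 ± 0.242% in sham libraries (SD, n = 3 each). To compare genes with each other, normalised counts were divided by the length of all annotated exons. Apoe reached 52985 ± 7975 normalised counts per kb in I/R libraries and 44949 ± 13201 in sham libraries (SD, n = 3 each). This was above C1qb, a complement gene of macrophages, at 22887 ± 5366 per kb in I/R and 24696 ± 1939 in sham libraries. It was also above Alb, the hepatocyte gene of serum albumin, at 13770 ± 3250 per kb in I/R and 15221 ± 3175 in sham libraries (SD, n = 3 each).

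On the same per-kb scale the order below Apoe was Apoc1, Apoa2, Apoa1, Apoc3, Lpl, Apoh, Apoc2 and Apob. Apoc1 had 14813 ± 1626 per kb in I/R and 16768 ± 6998 in sham libraries (SD, n = 3 each), and it lay below Apoe and above Apoa2 in all 6 libraries. Apoa2 had 5484 ± 261 per kb in I/R and 8052 ± 5153 in sham libraries, and Apoa1 had 4298 ± 925 in I/R and 5649 ± 2366 in sham libraries. Apoa2 was above Apoa1 in 5 of 6 libraries, within the sham spread of both. The widest step below Apoc1 was that from Apoa1 to Apoc3, with 586 ± 199 per kb for Apoc3 in I/R and 504 ± 306 in sham libraries (SD, n = 3 each), and Apoa1 was the higher of that pair in all 6 libraries. Among the last 5 genes neighbours did not differ beyond their spread, with mean levels per kb over all libraries of 545 for Apoc3, 452 for Lpl, 402 for Apoh, 291 for Apoc2 and 259 for Apob. With the longest transcript as the length, Lpl at 1152 per kb stood above Apoc3 at 780 and no other neighbours changed places.

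**Figure D1:**
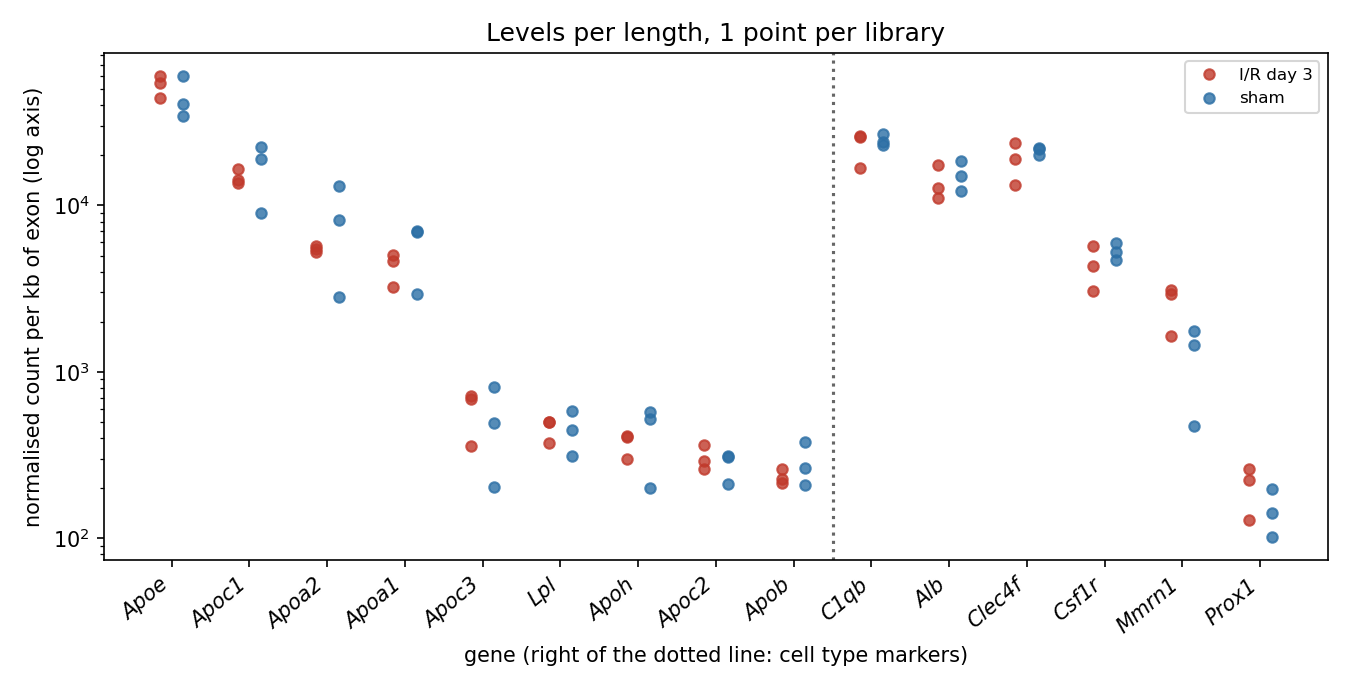
Normalised counts per kb of annotated exon (log axis) for the 9 genes in order of their mean, and for 6 cell type markers right of the dotted line, with 1 point per library and I/R day 3 in red left of sham in blue. Apoe lies above every marker shown in group means, and the 5 genes from Apoc3 to Apob overlap each other.

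For none of the 9 genes did a difference between I/R and sham libraries pass the test. All 9 passed the filter of a mean of at least 10 normalised counts, and 0 of 9 passed an adjusted p of 0.05 in limma, where 4 of 13434 genes or 0.0298% did. At an unadjusted p under 0.05 it was also 0 of 9, against 4.44% of all genes tested, and counts of 0 of 9 came from edgeR (0.00744% of all genes tested) and DESeq2 (0.283%) on recovered counts, also at an unadjusted p under 0.05 (3.98% and 3.46% of all genes). The groups overlapped for all 9, where 9.59% of all genes tested had groups that did not overlap, 5.11% with I/R higher and 4.48% with I/R lower. Log2 fold changes, which are differences of mean log2(normalised count + 1), were positive for 4 and negative for 5, with a median of -0.081 beside 0.017 over all 13434 genes.

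Apoe, made by macrophages and hepatocytes, had 94696, 116949 and 128198 normalised counts in I/R libraries 1, 2 and 3, against 127740, 87055 and 73509 in sham libraries 1, 2 and 3. Sham library 1 was nearly as high as the highest I/R library, and I/R library 1 lay below it, so the groups overlapped. Mean log2 values were 0.27 higher in I/R than in sham libraries (SE 0.28, limma adjusted p = 0.985), and the 95% interval ran from -0.36 to 0.90. The value was lowest without sham library 3, at 0.092, and highest without sham library 1, at 0.49.

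Apoc1, whose product slows remnant uptake, had 10523, 10139 and 12400 normalised counts in I/R libraries 1, 2 and 3, against 16701, 6659 and 14065 in sham libraries 1, 2 and 3. All I/R libraries lay between the lowest and the highest sham library. The log2 fold change was -0.081 (SE 0.30, limma adjusted p = 0.995), and it was 0.18 without sham library 1, 0.058 without sham library 3 and -0.48 without sham library 2. Apoc2, the cofactor that activates lipoprotein lipase, had 211, 297 and 237 normalised counts in I/R libraries 1, 2 and 3, against 253, 173 and 250 in sham libraries 1, 2 and 3. Its highest value was in I/R library 2 and its lowest in sham library 2, with the rest between. I/R exceeded sham by 0.15 on the log2 scale (SE 0.26, limma adjusted p = 0.988), and it turned to -0.029 when sham library 2 was left out and reached 0.26 when I/R library 1 was.

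Apoa1, the main protein of high density lipoprotein, had 5716, 6198 and 4023 normalised counts in I/R libraries 1, 2 and 3, against 8734, 3607 and 8606 in sham libraries 1, 2 and 3. Sham libraries 1 and 3 were above, and sham library 2 below, every I/R library. The log2 fold change was -0.31 (SE 0.32, 95% interval -1.03 to 0.41, limma adjusted p = 0.985), with -0.73 without sham library 2 and -0.093 without sham library 1. Apoa2, the second protein of those particles, had 3084, 2947 and 2804 normalised counts in I/R libraries 1, 2 and 3, against 7045, 1513 and 4414 in sham libraries 1, 2 and 3. The I/R libraries lay close together, while the highest sham library was 4.66 times the lowest, the widest range among the 9 genes. Its log2 fold change was -0.29 (SE 0.43, limma adjusted p = 0.986), with values of 0.19, -0.92 and -0.15 when sham library 1, 2 or 3 was left out.

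Apob, the structural protein of very low density lipoprotein, had 3618, 2999 and 3141 normalised counts in I/R libraries 1, 2 and 3, against 3658, 2915 and 5282 in sham libraries 1, 2 and 3. Sham library 3 stood above the other 5, which lay close together. Its log2 fold change was -0.24 (SE 0.22, 95% interval -0.73 to 0.25, limma adjusted p = 0.985), and it was -0.010 without sham library 3.

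Apoc3, an inhibitor of lipolysis, had 699.9, 361 and 722 normalised counts in I/R libraries 1, 2 and 3, against 502, 206 and 826 in sham libraries 1, 2 and 3. Both groups held a low library 2, and all I/R values lay within the sham range. For Apoc3 the log2 fold change was 0.36 (SE 0.45, limma adjusted p = 0.985), and it was -0.18 without sham library 2 and 0.82 without sham library 3. Apoh, a phospholipid-binding plasma protein also called beta-2-glycoprotein I, had 647, 653 and 478 normalised counts in I/R libraries 1, 2 and 3, against 834, 318 and 911 in sham libraries 1, 2 and 3. It followed the sham pattern of Apoa1, with library 2 lowest. The log2 fold change was -0.087 (SE 0.36, adjusted p = 0.995), and it was -0.57 without sham library 2, 0.12 without sham library 1, 0.19 without sham library 3 and 0.061 without I/R library 3.

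Lpl, whose product hydrolyses triglyceride in lipoproteins, had 3907, 5226 and 5224 normalised counts in I/R libraries 1, 2 and 3, against 3280, 6126 and 4675 in sham libraries 1, 2 and 3. The sham libraries ran in the opposite order to Apoa2, with library 2 highest and library 1 lowest. For Lpl the log2 fold change was 0.061 (SE 0.24, 95% interval -0.46 to 0.59, limma adjusted p = 0.995), and it was -0.17 without sham library 1, 0.28 without sham library 2 and -0.0089 and -0.0087 without I/R libraries 2 and 3.

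**Figure D2:**
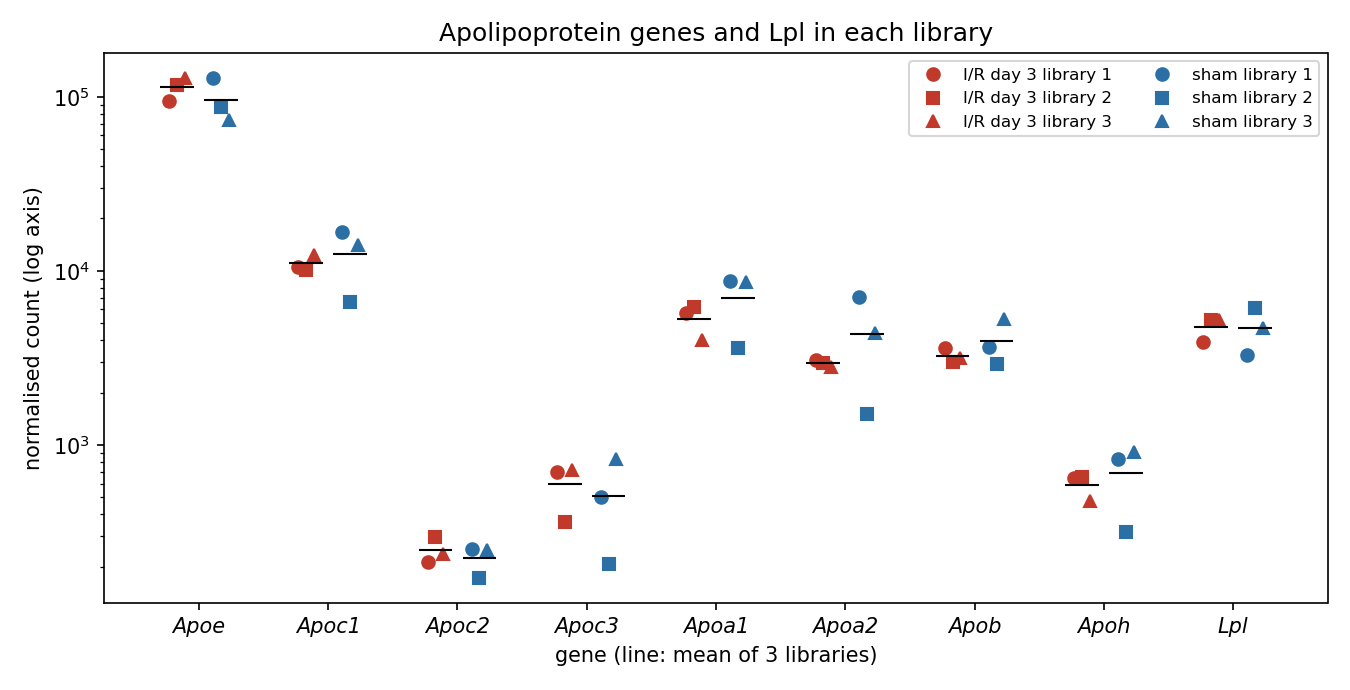
Normalised counts (log axis) of the 9 genes in each library, with I/R day 3 in red left of sham in blue, a marker shape per library number and a line at the mean of 3 libraries. The groups overlap for every gene, and sham library 2 (blue square) is the lowest of all 6 libraries for 7 genes and the highest for Lpl.

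**Figure D3:**
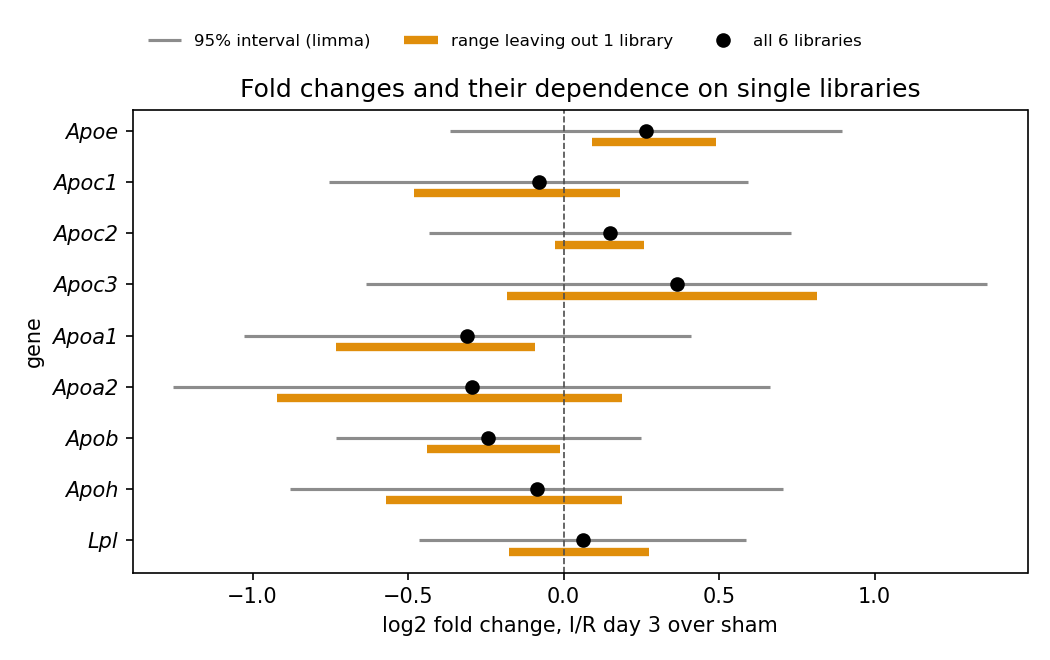
Log2 fold change of I/R day 3 over sham for the 9 genes (points), with the 95% interval from limma (grey) and the range of the value when each library in turn is left out (orange). Every 95% interval includes 0, and the orange range stays on 1 side of 0 for Apoe, Apoa1 and Apob.

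As a contrast of a transcript that macrophages make with one that they do not, Apoe was set against Apoa1 within each library, a ratio that 1 scaling factor per library leaves as it is. The deposited value of Apoe was 16.6, 18.9 and 31.9 times that of Apoa1 in I/R libraries 1, 2 and 3, against 14.6, 24.1 and 8.54 times in sham libraries 1, 2 and 3. The ratio was highest in I/R library 3 and lowest in sham library 3, while sham library 2 exceeded I/R libraries 1 and 2. On the log2 scale it averaged 4.43 ± 0.50 in I/R libraries and 3.85 ± 0.75 in sham libraries (SD, n = 3 each). The difference of 0.57 did not exceed the spread (two-sided exact permutation p = 0.4, where 3 against 3 libraries cannot go below 0.1). It stayed positive when each library was left out in turn, at 0.20 to 0.94, with the lowest value without sham library 3 and the highest without sham library 2.

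The medians of the sets had opposite signs, and their difference was not tested. The 5 hepatocyte-made genes had a median log2 fold change of -0.24, and 4 of 5 were negative. Apoe, Apoc1 and Apoc2 had a median of 0.15, and 2 of 3 were positive. The hepatocyte median was -0.57 without sham library 2 and 0.12 without sham library 1, and that of the other set was -0.029 when sham library 2 was dropped. When each library was centred within classes of transcript length, an alternative added after seeing the data, both medians were negative, at -0.28 for the hepatocyte-made genes and -0.14 for the other set. Without that centring the 18 hepatocyte markers, none an apolipoprotein, had a median log2 fold change of 0.069, with 10 positive and 8 negative.

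Apoe was also set against marker genes of each cell type, as values with no test. It stood at 5.37, 4.66 and 3.88 times Csf1r, a receptor gene of macrophages, in I/R libraries 1, 2 and 3, against 4.22, 2.54 and 2.70 times in sham libraries 1, 2 and 3. Only I/R library 3 lay below the highest sham library. Csf1r had the lowest log2 fold change of the 14 Kupffer cell and macrophage markers, at -0.32, beside a list median of -0.17. The ratio therefore depends on the marker taken. Against Alb, Apoe stood at 2.32, 3.92 and 4.90 times in I/R libraries 1, 2 and 3. In sham libraries 1, 2 and 3 it stood at 3.64, 3.05 and 1.70 times. These ratios are of counts and not per length, so they compare libraries and not genes. I/R library 1 had the lowest summed level of Kupffer cell and macrophage markers, at 172180, and the highest Apoe to Csf1r ratio. Csf1r is itself part of that sum, so these values are not independent. Apoe was at its lowest among I/R libraries there, at 94696.

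The 5 hepatocyte-made genes of the 9 varied more among sham than among I/R libraries. The highest library was at most 2.00 times the lowest for any of these 5 genes in the I/R group, against 1.81 to 4.66 times in the sham group. For 7 of the 9 genes every I/R library lay strictly within the sham range, among them all 5 hepatocyte-made genes, where 25.1% of all genes tested did so. The 18 hepatocyte markers shared this only in part, with every I/R library within the sham range for 6 of 18. Some of these markers, such as Fgb, had the wider range among I/R libraries. Others, such as Fabp1, had it among sham libraries. Sham library 2 held the lowest of the 6 values for 7 of the 9 genes, against 15.4% of all genes tested. The trait was not particular to the 9 genes, since sham library 2 was also lowest for 13 of the 18 hepatocyte markers. For Apoa2 it stood at 0.264 times the mean of sham libraries 1 and 3, for Apoc3 at 0.311, Apoh at 0.364, Apoa1 at 0.416, Apoc1 at 0.433 and Apob at 0.652, while Lpl stood at 1.54 times. Sham library 2 also had the lowest sum of hepatocyte markers, at 61899, beside 97139 and 103539 in sham libraries 1 and 3.

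For all genes tested, deviations in some libraries were ordered by transcript length, and the 9 genes followed that order only in part. Genes whose longest transcript is at most 800 bp (298 genes) had a median deviation from their 6-library mean on the log2 scale of -0.11 in I/R library 1 and 0.30 in I/R library 2, and one of -0.32 in sham library 2. Genes over 6000 bp (2007 genes) had 0.16 in I/R library 1 and -0.064 in I/R library 2, and a median of 0.061 in sham library 2. Short transcripts were thus low and long ones high in I/R library 1 as well as in sham library 2. In I/R library 1 Apoc1 (532 bp), Apoa2 (518 bp) and Apoc2 (727 bp) lay near the median of the shortest class. They were at -0.10, -0.080 and -0.14. Apoc3 (709 bp) departed from it, at 0.48.

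In sham library 2 the deviations, from the shortest transcript to the longest, were -1.11 for Apoa2, -0.76 for Apoc1, -1.27 for Apoc3, -0.43 for Apoc2 (727 bp), -0.69 for Apoa1 (1035 bp), -0.92 for Apoh (1190 bp), -0.24 for Apoe (1408 bp), 0.40 for Lpl (4115 bp) and -0.27 for Apob (13934 bp). Apoc2 lay nearer to 0 than the longer Apoa1 and Apoh, and the highest value was that of Lpl and not of the longer Apob. The members thus followed length only in part. The 18 hepatocyte markers stood in sham library 2 at 0.277 to 0.840 times the mean of the other sham libraries. Markers with short transcripts were among the lowest, with Ttr (1186 bp) at 0.356 times and Hpd (1404 bp) at 0.325 times. Trf (2571 bp) was the highest at 0.840 times. The order by length was not strict, and Cyp2e1 (1833 bp) stood at 0.294 times. Both Fabp1, a fatty acid binding protein gene with a 553 bp transcript, and Cyp3a11, a cytochrome P450 gene with a 2802 bp transcript, stood at 0.277 times. Serpina1a, the alpha-1-antitrypsin gene with a 1581 bp transcript, stood at 0.830 times, and Cps1, a urea cycle gene with a 5555 bp transcript, at 0.780 times.

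With the median of each length class centred in every library, 0 of 9 genes passed. Log2 fold changes were then 0.076 for Apoc3, -0.37 for Apoc1, -0.58 for Apoa2, -0.14 for Apoc2 and -0.017 for Lpl, while those of Apoe, Apoa1, Apob and Apoh were 0.26, -0.31, -0.28 and -0.090. The part of length in the sham spread was not tested beyond this.

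**Figure D4:**
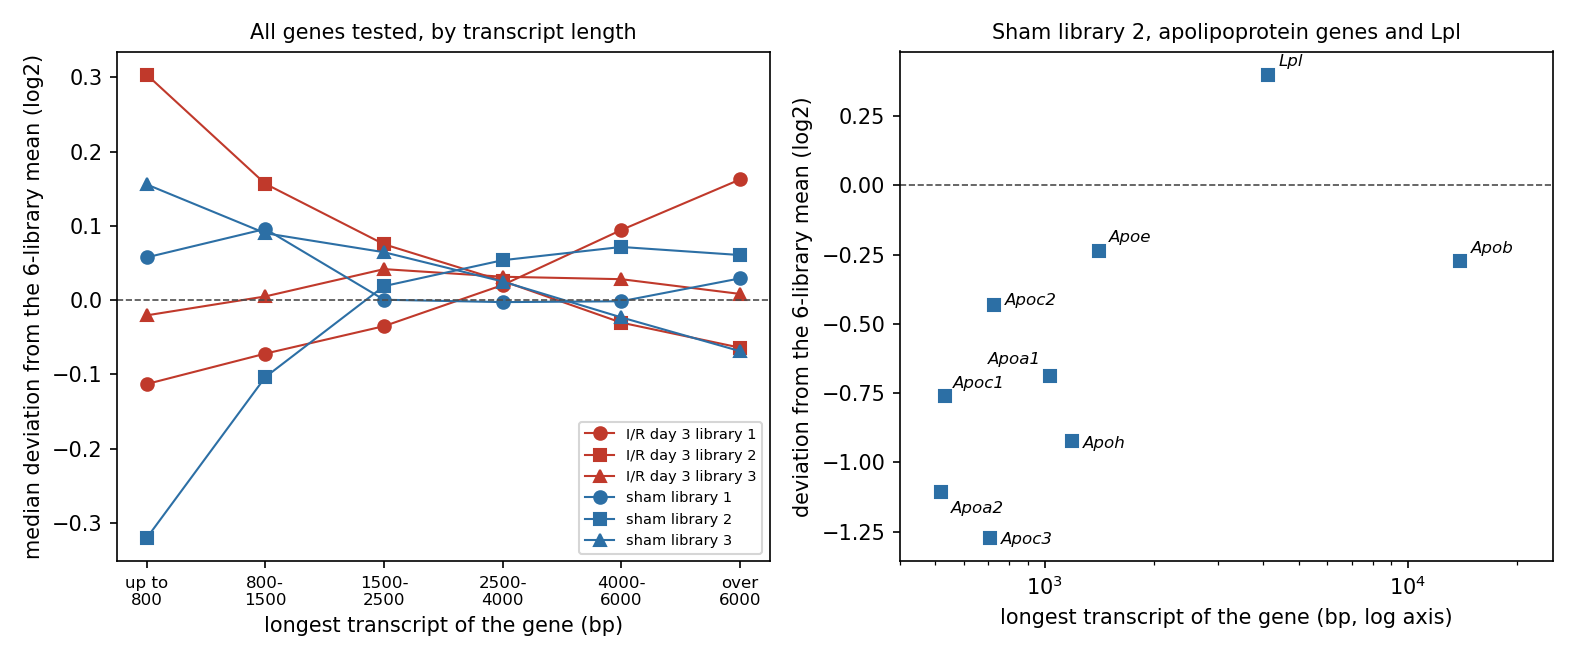
Left, median deviation of each library from the 6-library mean (log2) for all genes tested, in 6 classes of the longest annotated transcript. Right, the deviation of sham library 2 for the 9 genes against that length (log axis), where Apoc3, Apoa2, Apoh, Apoc1 and Apoa1 lie lowest and Lpl, at 0.40, is the only gene above 0.

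The other apolipoprotein and lipid transfer genes also showed 0 calls among 12 tested, with 6 positive and 6 negative log2 fold changes and a median of 0.004. Apom, which carries sphingosine 1-phosphate on high density lipoprotein, was the one gene of the list whose groups did not overlap. It had 105, 155 and 81.0 normalised counts in I/R libraries 1, 2 and 3, against 68.4, 74.5 and 62.1 in sham libraries 1, 2 and 3 (log2 fold change 0.68, SE 0.37, limma adjusted p = 0.985). Clu, the gene of clusterin or apolipoprotein J, had 8904 ± 4637 normalised counts in I/R and 11079 ± 1593 in sham libraries, and Pltp, the phospholipid transfer protein gene, 5067 ± 1705 in I/R and 4824 ± 1238 in sham libraries (SD, n = 3 each). Apoc4, which lies between Apoc1 and Apoc2, had 373, 244 and 369 normalised counts in I/R libraries 1, 2 and 3, against 781, 141 and 458 in sham libraries 1, 2 and 3. Its sham pattern was that of Apoc1 and Apoa2, with sham library 2 at 0.228 times the mean of the other sham libraries.

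Of 16 lipoprotein receptor and uptake genes 15 were tested and 0 passed, with 6 positive and 9 negative and a median of -0.098. Lrp1, a remnant receptor that binds Apoe, ranked 39 of all genes and had 17655 ± 2054 normalised counts in I/R and 20297 ± 4349 in sham libraries (SD, n = 3 each). Lsr, a lipolysis-stimulated lipoprotein receptor gene, was lower in every I/R library, with 294, 251 and 177 normalised counts in I/R libraries 1, 2 and 3, against 329, 371 and 603 in sham libraries 1, 2 and 3 (log2 fold change -0.83, SE 0.29, limma adjusted p = 0.985). Apobr, a macrophage receptor gene for Apob-48 particles, was likewise lower in every I/R library, with 589, 651 and 704 normalised counts in I/R libraries, against 856, 1044 and 724 in sham libraries (log2 fold change -0.42, SE 0.20, adjusted p = 0.985). Sorl1, a receptor of the same family as the low density lipoprotein receptor, was higher in every I/R library by a narrow margin, with a lowest I/R value of 289.6 and a highest sham value of 288.7 (log2 fold change 0.70, SE 0.35, adjusted p = 0.985). Groups without overlap made 3 of these 15 genes, against 9.59% of all genes tested.

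Among 9 lipases, anchors and inhibitors 0 passed, with a median of -0.099. Lipc, the hepatic lipase gene, was higher in every I/R library, at 123, 83.4 and 92.6 normalised counts in I/R libraries 1, 2 and 3, against 83.1, 59.2 and 65.7 in sham libraries 1, 2 and 3 (log2 fold change 0.51, SE 0.36, limma adjusted p = 0.985). Lipa, the lysosomal acid lipase gene, had 4054 ± 1007 normalised counts in I/R and 3397 ± 1173 in sham libraries. Gpihbp1, which anchors lipoprotein lipase to capillary endothelium, had 286 ± 85.3 in I/R and 233 ± 25.4 in sham libraries (SD, n = 3 each).

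The 12 assembly and efflux genes had 0 calls, 2 positive and 10 negative log2 fold changes and a median of -0.080, and the groups overlapped for all 12. Abca1, which loads cellular cholesterol and phospholipid onto Apoa1 and Apoe, ranked 51 of all genes and had 16090 ± 821 normalised counts in I/R and 17223 ± 4237 in sham libraries. Mttp, the transfer protein gene that hepatocytes need to lipidate Apob, had 124 ± 51.1 in I/R and 164 ± 62.8 in sham libraries. Apobec1, which edits Apob RNA in mouse liver, had 1568 ± 363 in I/R and 1744 ± 493 in sham libraries (SD, n = 3 each).

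Of 19 transcription factors known to act on apolipoprotein genes 0 passed, with 6 positive and 13 negative and a median of -0.21. Nr1h3, the liver X receptor gene of macrophages and hepatocytes, had 3235 ± 866 normalised counts in I/R and 3760 ± 1105 in sham libraries, and Hnf4a, a nuclear receptor gene of hepatocytes, 598 ± 295 in I/R and 482 ± 67.3 in sham libraries (SD, n = 3 each). Pparg, a lipid-sensing receptor gene, was higher in every I/R library at 293 ± 8.39 normalised counts, against 241 ± 6.48 in sham libraries (SD, n = 3 each, log2 fold change 0.28, SE 0.21, limma adjusted p = 0.985). Srebf2, which drives sterol synthesis genes, was lower in every I/R library at 1226 ± 86.0, against 1425 ± 148 in sham libraries (log2 fold change -0.21, SE 0.17, adjusted p = 0.985).

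Other cell type lists give the setting of these values. In the list of recruited and lipid-associated macrophage genes 2 of 11 passed as higher in I/R libraries, where 0.0298% of all genes tested did. These were Gpnmb and F13a1 (limma adjusted p = 0.0416 each). All 11 log2 fold changes were positive, with a median of 1.08. Every I/R library was above every sham library for 7 of 11, against 5.11% of all genes tested. The list was chosen with earlier results of these data known. Over all genes the count called higher fell to 0 when any library other than sham library 1 was left out, so both calls rest on each of those 5 libraries. The summed level of the list was 20805 to 31017 normalised counts in I/R libraries and 17846 to 21372 in sham libraries. Of its members Trem2, the gene of a lipid receptor that binds apolipoproteins, had 370, 517 and 367 normalised counts in I/R libraries 1, 2 and 3, against 264, 150 and 147 in sham libraries 1, 2 and 3 (log2 fold change 1.19, SE 0.29, limma adjusted p = 0.597). The 8 lymphatic markers had 0 calls, but all 8 log2 fold changes were positive as well, with a median of 0.95. For 2 of these 8 every I/R library was above every sham library. The 14 Kupffer cell and macrophage markers had 0 calls, with 2 positive and 12 negative and a median of -0.17. The 8 stellate cell markers summed to 2993 to 3821 in I/R libraries, and to 7959 in sham library 1 beside 1376 and 1791 in sham libraries 2 and 3. The 8 general and sinusoidal endothelial markers summed to 18502 to 28191 in I/R and 18795 to 24646 in sham libraries. No marker of the hepatocyte, Kupffer cell, lymphatic, endothelial or stellate lists was at 0 in any library. The part of these cell types in the apolipoprotein values was not tested.

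The genes whose pattern was most like that of a member were found by Pearson correlation of log2(normalised count + 1) over the 6 libraries, among 10832 other genes with a mean of at least 50. With 6 points that share libraries and depth such values are a description, and 75 genes exceeded 0.9 for Apoe, 53 for Apob and 181 for Lpl. Nearest to Apoe were Aadat (0.994), Oaz2 (0.986) and Plin2 (0.981), the last a lipid droplet protein gene. Plin2 had 4184, 5665 and 5641 normalised counts in I/R libraries 1, 2 and 3, against 5586, 4138 and 3479 in sham libraries 1, 2 and 3. Nearest to Apob were Rdh7 (0.992), Nostrin (0.990) and Tdp2 (0.970), and nearest to Lpl were Slc44a2 (0.996), Polr3gl (0.992) and Anapc16 (0.992).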

How the data were processed

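Per the labels' protocols, 20000 to 50000 sorted cells per library gave total RNA, which was sequenced after removal of ribosomal RNA. The table deposited by the authors holds normalised counts, a signal in which every library was scaled by 1 factor. Its build is mm10. Tools listed in the submitters' processing notes, with no role given, are DESeq2 1.22.1, StringTie 1.3.3b, HISAT2 2.1.0 and Trim Galore 0.5.0. How genes were counted is not stated. Scaling each column to its lowest nonzero value returned whole numbers for 100% of entries (tolerance 0.01). Count models took these recovered counts as reads, although they may come from coverage. No 2 libraries agreed within sampling noise (chi-square per degree of freedom 26.2 to 57.9).

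Libraries of the I/R and sham groups were compared by limma 3.58.1 (R 4.3.3), using log2(value + 1) and a trended variance, over 13434 genes with a mean of at least 10. Tests were two-sided, and p-values were adjusted by Benjamini-Hochberg over all of these genes. Alternatives included edgeR 4.0.16 and DESeq2 1.42.0 on recovered counts. The Apoe to Apoa1 ratio was tested by exact permutation in Python 3.11.15. Gene positions and lengths come from GENCODE mouse release 21 on GRCm38, which held 21886 of the 22027 identifiers, and promoters from RefSeq on GRCm38.p6. The text names all 9 members, pathway genes whose groups did not overlap and otherwise up to 3 per list by mean, markers, and the 3 nearest genes of Apoe, Apob and Lpl. Apoc4, Hnf4a, Gpihbp1, Mttp, Apobec1, Trem2, Fabp1, Cyp3a11, Serpina1a, Cps1, Hpd, Cyp2e1 and Fgb were picked after their values were seen. The members and lists were chosen with earlier results of these data known.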

Additional observations from a re-analysis of the deposited data

How the results depend on the processing

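In 16 alternatives 0 of 9 genes passed, and the lowest adjusted p was 0.620, for Apoa2 without sham library 2. Apoe, Apoa1 and Apob kept their sign in all 16. Over all genes, limma called 4 higher and 0 lower; the count higher was 0 without the variance trend, 0 with a replicate block, 1 with length classes centred, 1 in edgeR and 35 in DESeq2, which called 7 lower. Leaving out 1 library gave 0 to 20 higher and 0 to 2 lower, the highest counts without sham library 1. The cause was not tested.

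Signs reversed for Apoc1 under quantile normalisation (0.026), and for Apoc2 (-0.14) and Lpl (-0.017) with length classes centred. With 1 library left out, log2 fold changes ranged from -0.48 to 0.18 for Apoc1, -0.029 to 0.26 for Apoc2, -0.18 to 0.82 for Apoc3, -0.92 to 0.19 for Apoa2, -0.57 to 0.19 for Apoh and -0.17 to 0.28 for Lpl. Same-numbered libraries did not deviate together (correlations -0.020, -0.21 and -0.0014). With 3 libraries per group this cannot exclude a pairing, so whether the numbers pair them stays unknown. The replicate block left 0 of 9 genes called.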
